A study of Hordeum vulgare with 18 samples.

Results

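The 2 genes described here, HORVU2Hr1G096380 on chromosome 2H and HORVU3Hr1G032400 on chromosome 3H, are annotated in the study as branched-chain amino acid transaminases of barley (Hordeum vulgare), and they are 2 of the 43050 genes counted in each library. They were chosen because the study named them as more abundant in 1 variety, Laanaceur, than in the 2 others averaged, under high nitrate (HN). Both were thus selected on the HN values of that contrast, which are given as a description without a test. Leaf RNA of 3 unmodified genotypes was sequenced: Golden Promise (GP), a European cultivar used as the reference line, and, from Morocco, Laanaceur (M4) and Oussama (M5). Seedlings grew in sand and were watered with 5 mM nitrate (HN) or 0.5 mM nitrate (LN), and all received nitrate enriched in the stable isotope 15N during the last day. Each of the 6 groups held 3 libraries, 18 in all, each from the leaf of a very small number of plants.

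Branched-chain amino acid transaminases exchange an amino group between glutamate and the oxo acids of leucine, isoleucine and valine. The reaction is reversible, so that the same kind of enzyme closes the synthesis of these amino acids, in plants mainly in the plastid, and opens their breakdown, in plants in the mitochondrion. Plant genomes carry several genes for the enzyme, and the compartment of each product cannot be read from transcript counts. Isopropylmalate dehydrogenase acts upstream, in leucine synthesis only, while threonine aldolase splits threonine, the precursor of isoleucine, to glycine and acetaldehyde.

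Between 11823626 and 22281661 reads per library fell on genes, of totals between 15343024 and 29116744. Levels are given as CPM, the read count of a gene scaled to 1e+06 gene reads, adjusted between libraries by the trimmed mean of M values (TMM). Of the 43050 genes, 19021 exceeded 1 CPM in at least 3 libraries and were tested, both transaminase genes among them. HORVU2Hr1G096380 had 18 to 84 reads per library and HORVU3Hr1G032400 had 61 to 2599, so that counting error weighed more on the former. Reads from the opposite strand were 0 in every library for HORVU2Hr1G096380 and 0 to 5 per library for HORVU3Hr1G032400. These are bulk leaf samples, in which a larger share of cells that transcribe a gene and more transcript per cell cannot be told apart. The label "leaf" could not be checked against leaf markers, because none of the identifiers could be paired with marker names. Sequences and coordinates of the genes were not used here.

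The libraries of GP replicate 1 stood apart from the other GP libraries in genes that separate the genotypes. In GP HN replicate 1, a set of 14 genes otherwise counted in M4 alone stood at 16.2% of their summed M4 level. In GP LN replicate 1, a set of 19 genes otherwise counted in M5 alone stood at 45.9% of their M5 level, and 25 genes otherwise counted in GP alone at 33.9% of their GP level. The sets were chosen without GP replicate 1, at a mean above 5 CPM in their own genotype and below 0.05 CPM in each other genotype. In the other 4 GP libraries the M4 and M5 sets stood under 0.1%, which follows from that choice. Fitted values of the transaminase genes are therefore given with and without both GP replicate 1 libraries. Without them GP rests on 2 libraries per nitrate supply. M4 HN replicate 4 was taken as HN after its title, although its treatment label reads 0.5 mM.

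HORVU3Hr1G032400 was abundant in M4 and M5 and low in GP. In M4 it stood at 112, 108 and 98.1 CPM in HN replicates 1, 2 and 4. Under LN, M4 replicates 1, 3 and 4 had 84.7, 124 and 128 CPM. All 6 M4 libraries lay in a narrow band, with a mean of 109 ± 16.2 CPM (SD, n = 6). In M5 the level was 138, 120 and 143 CPM in HN replicates 1, 2 and 3. Under LN, M5 replicates 1, 2 and 3 had 84.4, 113 and 105 CPM. The M5 mean was 117 ± 21.5 CPM (SD, n = 6), and the M5 libraries overlapped those of M4.

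In GP the level was 27.3, 5.67 and 3.51 CPM in HN replicates 1, 2 and 4. Under LN, GP replicates 1, 2 and 3 had 80.8, 4.43 and 5.44 CPM. The 2 replicate 1 libraries were by far the highest of GP, and the other 4 averaged 4.76 ± 0.996 CPM (SD, n = 4). Every GP library lay below every M4 and M5 library, a separation shown upwards by 1.08% of all tested genes. The mean over the 6 M4 libraries was 22.9 times that of the 4 GP libraries without replicate 1, and the M5 mean was 24.6 times it. Over all 6 GP libraries these ratios were 5.16 and 5.53.

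HORVU2Hr1G096380 had few reads and varied less between genotypes. In M4 it stood at 2.67, 3.76 and 3.06 CPM in HN replicates 1, 2 and 4. Under LN, M4 replicates 1, 3 and 4 had 2.82, 2.52 and 1.79 CPM. The HN values of M4 were higher on average than its LN values, with an overlap between 2.67 and 2.82 CPM. In GP it stood at 2.15, 2.02 and 1.26 CPM in HN replicates 1, 2 and 4. Under LN, GP replicates 1, 2 and 3 had 2.93, 2.89 and 2.08 CPM. GP therefore leaned the other way, higher under LN, and again the groups overlapped. In M5 it stood at 1.33, 1.28 and 1.52 CPM in HN replicates 1, 2 and 3. Under LN, M5 replicates 1, 2 and 3 had 2.66, 1.71 and 1.63 CPM. All 3 LN libraries of M5 were above all 3 of HN, as for 5.38% of tested genes.

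**Figure D1:**
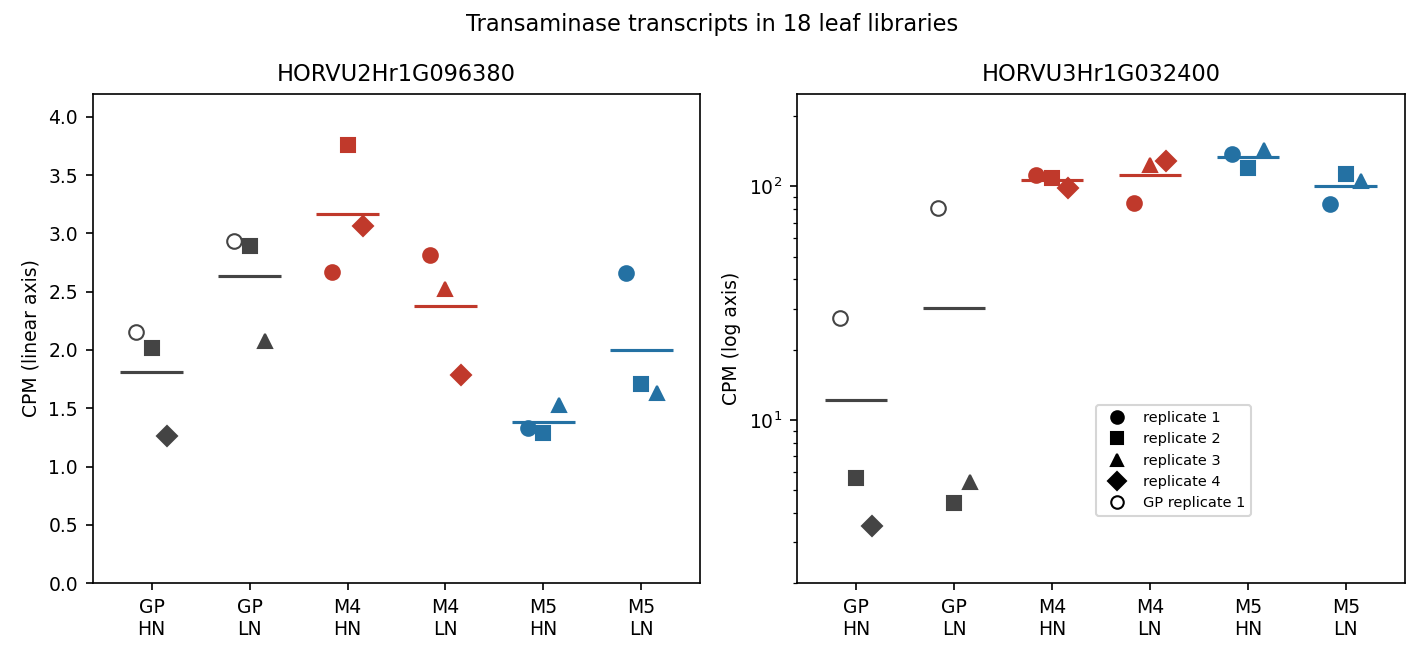
Level of each gene in CPM (left, linear axis from 0, right, log axis) in the 18 libraries by genotype and nitrate supply, with the replicate number as the marker and the group mean as a line. HORVU3Hr1G032400 lies between 84.4 and 143 CPM in all M4 and M5 libraries, and the open symbols of GP replicate 1 (27.3 and 80.8 CPM) lie above the other 4 GP libraries (3.51 to 5.67 CPM).

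Ordered by group mean, HORVU2Hr1G096380 ran from M4 HN (3.17 ± 0.551 CPM, SD, n = 3) through GP LN (2.63 ± 0.480), M4 LN (2.38 ± 0.532), M5 LN (2.0 ± 0.575) and GP HN (1.81 ± 0.479) to M5 HN (1.38 ± 0.127). Each pair of neighbours in that order overlapped in their libraries. For HORVU3Hr1G032400 the order was M5 HN (133 ± 11.9 CPM), M4 LN (112 ± 23.9), M4 HN (106 ± 7.28), M5 LN (101 ± 14.8), GP LN (30.2 ± 43.8) and GP HN (12.2 ± 13.2). There the only neighbours that did not overlap were M5 LN and GP LN.

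The contrast that chose the genes set M4, under HN, against GP and M5 averaged. On the log2 scale it was 1.07 (SE 0.230) for HORVU2Hr1G096380 and 1.61 (SE 0.685) for HORVU3Hr1G032400 in the fit of all 18 libraries. The 2 genes reached it in different ways. For HORVU2Hr1G096380 the fitted difference was 0.84 (SE 0.264) against GP and 1.30 (SE 0.290) against M5. All 3 M4 HN libraries, from 2.67 CPM, lay above all 6 HN libraries of GP and M5, which reached 2.15 CPM. Such a separation was shown upwards by 5.89% of tested genes. For HORVU3Hr1G032400 the difference was 3.52 (SE 0.879) against GP and -0.30 (SE 0.830) against M5, and all 3 M4 HN libraries lay below the M5 HN libraries, as for 10.8% of tested genes. Without GP replicate 1 these values were 4.58 and -0.26, and the contrast with both was 2.16 (SE 0.171). Without M4 HN replicate 4, the library with conflicting labels, the contrast was 0.89 for HORVU2Hr1G096380 and 1.51 for HORVU3Hr1G032400.

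The 9 LN libraries took no part in choosing the genes, and there the same contrast could be tested. The edgeR fit held all 18 libraries, so its replicate terms and its estimate of spread also drew on the HN libraries. The edgeR test under LN is therefore not fully separate from the choice. For HORVU2Hr1G096380 M4 differed from GP and M5 by 0.17 on the log2 scale (SE 0.239, 95% interval -0.34 to 0.69, adjusted p = 0.691, edgeR quasi-likelihood test with Benjamini-Hochberg adjustment over 19021 genes). The M4 LN libraries, 1.79 to 2.82 CPM, lay within the range of the GP and M5 LN libraries, 1.63 to 2.93 CPM. Against GP alone the fitted difference was -0.02 (adjusted p = 0.977, edgeR) and against M5 alone 0.37 (SE 0.275, adjusted p = 0.419, edgeR). An M4 difference in this gene was therefore not detectable under LN. The M4 contrast under LN minus that under HN was -0.89 (SE 0.330), given without a test because the HN arm chose the gene. Without M4 HN replicate 4 it was -0.64 (SE 0.374), and the LN contrast alone was then 0.25 (SE 0.242).

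For HORVU3Hr1G032400 the LN contrast was 1.32 (SE 0.737, 95% interval -0.27 to 2.92, adjusted p = 0.282, edgeR). In this contrast edgeR called 10.2% of tested genes, 5.78% being higher and 4.45% lower in M4, and neither transaminase gene was among them in the fit of all 18 libraries. Without both GP replicate 1 libraries the contrast for HORVU3Hr1G032400 was 2.42 (SE 0.184, adjusted p = 1.37e-05, edgeR), and without GP LN replicate 1 alone 2.40 (SE 0.498, adjusted p = 0.00933, edgeR). The edgeR call turned on a single library. An exact two-sided permutation test of log2 CPM over the LN libraries, 3 of M4 against 6 of the others, gave a difference of 1.64 with p = 0.143 for HORVU3Hr1G032400 and 0.05 with p = 0.881 for HORVU2Hr1G096380, where the smallest p possible was 0.0119. Without GP LN replicate 1 the permutation test gave 1.88 with p = 0.196 for HORVU3Hr1G032400 (smallest possible 0.0179). The libraries set against M4 included those of M5, whose LN levels (84.4 to 113 CPM) overlapped those of M4 (84.7 to 128 CPM). For HORVU3Hr1G032400 the permutation test therefore cannot decide on a difference of M4 from GP, and nothing is concluded from it.

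Taken against each genotype, HORVU3Hr1G032400 was 2.51 higher in M4 than in GP under LN on the log2 scale (SE 0.905, adjusted p = 0.136, edgeR), a comparison in which 6.26% of tested genes were called. The M4 LN libraries, from 84.7 CPM, lay above all GP LN libraries, the highest of which was replicate 1 at 80.8 CPM, as for 11.6% of tested genes upwards. Without both GP replicate 1 libraries the difference was 4.63 (SE 0.270, 24.8-fold, adjusted p = 2.61e-06, edgeR). Against M5 under LN the difference was 0.14 (SE 0.847, 95% interval -1.70 to 1.97, adjusted p = 0.939, edgeR), in a comparison with 11.7% of tested genes called. Without the GP replicate 1 libraries its interval narrowed to -0.23 to 0.63 (estimate 0.20, adjusted p = 0.540, edgeR). The level of HORVU3Hr1G032400 was thus not distinguishable between M4 and M5 under LN, within those limits.

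M5 was set against GP at both supplies. The HN libraries of GP and M5 also entered the contrast that chose the genes, so that their HN difference is given as a description without a test. Under HN HORVU3Hr1G032400 was 3.82 higher in M5 on the log2 scale (SE 0.905, 14.1-fold), and the 3 M5 libraries lay above the 3 of GP, as for 13.6% of tested genes. Leaving out 1 library at a time gave differences from 3.43 to 4.69, and without both GP replicate 1 libraries the difference was 4.83 (SE 0.272, 28.5-fold). Although their fit shared replicate terms and spread with HN, the LN libraries took no part in the choice. There the difference was 2.37 (SE 0.873, adjusted p = 0.185, edgeR), with all M5 above all GP libraries as for 9.54% of tested genes, and 4.43 (SE 0.260, 21.6-fold, adjusted p = 2.64e-06, edgeR) without both GP replicate 1 libraries. Under LN 4.23% of tested genes were called between M5 and GP.

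For HORVU2Hr1G096380 the difference of M5 from GP was -0.46 under HN (SE 0.290) and -0.39 under LN (adjusted p = 0.559, edgeR), and the M5 and GP libraries overlapped in both.

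**Figure D2:**
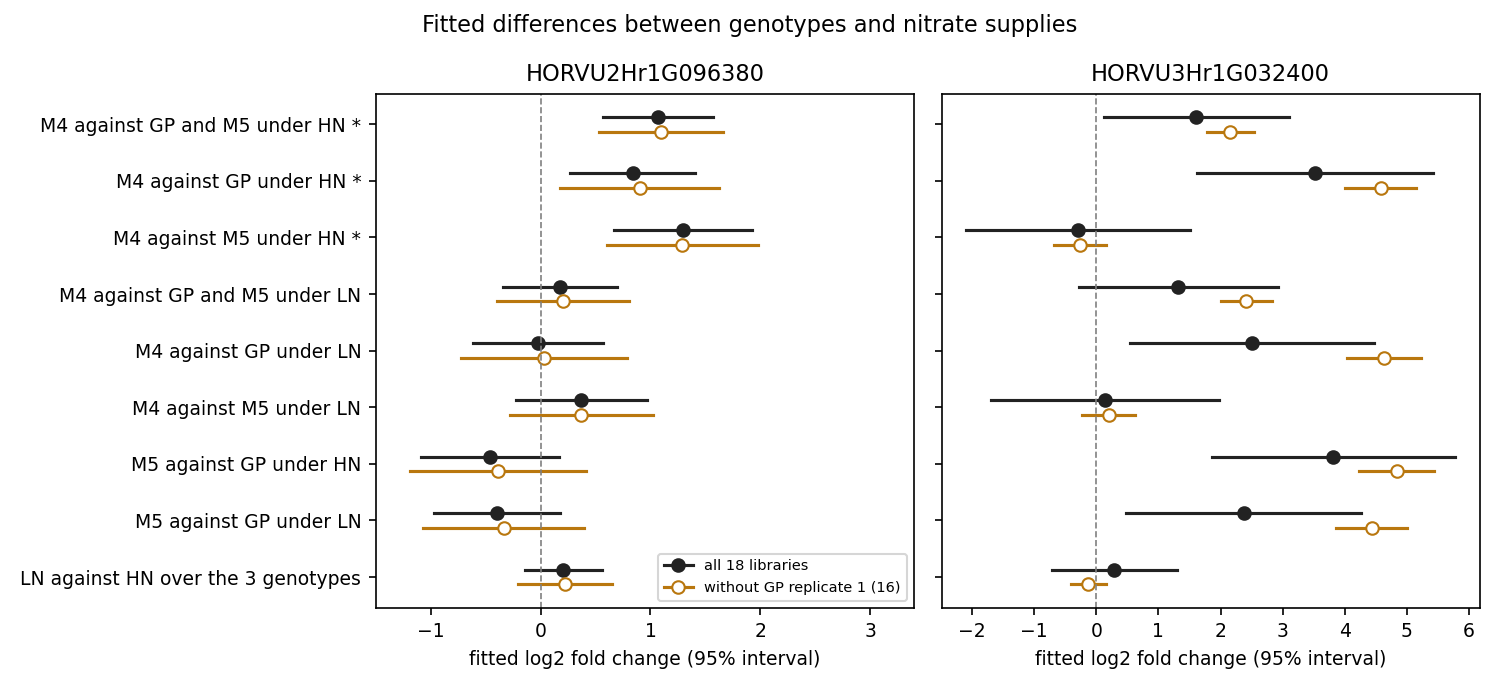
Fitted log2 fold changes (x axis) with 95% intervals for each gene in 9 comparisons, from all 18 libraries (filled) and from the 16 without GP replicate 1 (open); an asterisk marks comparisons of M4 under HN, which chose the genes. For HORVU3Hr1G032400 every comparison of M4 or M5 with GP moves to the right and narrows without GP replicate 1, for example from 2.51 to 4.63 for M4 against GP under LN, whereas those for HORVU2Hr1G096380 hardly move.

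The level of HORVU3Hr1G032400 in the GP replicate 1 libraries was compared with other genes that are low in GP. A total of 74 genes stood, in the other 4 GP libraries, at least 10 times below both M4 and M5, which had at least 5 CPM. In GP HN replicate 1 these genes had a median of 19.4% of their M4 level (quartiles 17.6 and 23.3%), and HORVU3Hr1G032400 had 25%. Against M5 the gene had 23.3% there, within the quartiles of the 74 genes (17.0 and 25.6%). In GP LN replicate 1 their median was 49.5% of the M5 level (quartiles 41.8 and 61.3%), and HORVU3Hr1G032400 had 69.0%. The gene was therefore raised in the same 2 libraries as the others, above their upper quartile in GP LN replicate 1 and, against M4, in GP HN replicate 1, and what raised it was not tested. HORVU2Hr1G096380, which is not among the 74 genes, stood at 2.15 and 2.93 CPM in these libraries, close to the 2.02 and 2.89 CPM of replicate 2.

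Libraries of 1 harvest could be set side by side, since a replicate number marks a harvest in November (1 and 2), March (3) or April (4). For HORVU3Hr1G032400 under HN, the log2 ratio of M4 to GP was 2.04 in replicate 1, 4.26 in replicate 2 and 4.81 in replicate 4. Under LN it was 0.07 in replicate 1 and 4.51 in replicate 3. Each harvest other than that of replicate 1 gave more than 4. For HORVU2Hr1G096380 the HN ratio of M4 to GP was 0.31, 0.90 and 1.28 in replicates 1, 2 and 4, and the LN ratio was -0.06 in replicate 1 and 0.28 in replicate 3. Spring against autumn harvests differed by -0.33 for HORVU2Hr1G096380 and by -0.45 for HORVU3Hr1G032400 (adjusted p = 1 for both, edgeR), and edgeR called 0 genes in that comparison, with 885 at an unadjusted p under 0.05, while DESeq2 called 9.

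The HN libraries that chose the genes are one side of every comparison of nitrate supply, so that these values are descriptive. Averaged over the 3 genotypes, LN against HN was 0.21 on the log2 scale for HORVU2Hr1G096380 (SE 0.162) and 0.29 for HORVU3Hr1G032400 (SE 0.465). Over all genes this comparison called 6, or 0.0315% of those tested. Without both GP replicate 1 libraries the estimate for HORVU3Hr1G032400 turned to -0.13 (SE 0.128). For HORVU2Hr1G096380 LN against HN was 0.47 (SE 0.276) in GP, -0.39 (SE 0.274) in M4 and 0.54 (SE 0.277) in M5. Without M4 HN replicate 4, the library with conflicting labels, the M4 value was -0.17 (SE 0.315). Within a harvest the log2 ratio of LN to HN in M4 was 0.08 in replicate 1 and -0.78 in replicate 4. For HORVU3Hr1G032400 LN against HN was 0.10 (SE 0.823) in M4, -0.34 (SE 0.771) in M5 and 1.11 (SE 0.826) in GP. Without the GP replicate 1 libraries these values were 0.04 (SE 0.189), -0.42 (SE 0.181) and -0.01 (SE 0.277). In M5 all 3 LN libraries of HORVU3Hr1G032400 lay below all 3 HN libraries, as for 6.61% of tested genes, with log2 ratios of -0.71, -0.09 and -0.44 in replicates 1, 2 and 3.

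The joint values of the 2 genes within a genotype hold the same nitrate differences again, and their HN libraries are those that chose the genes, so that the correlations below are a description and no separate support. Over the 6 libraries of a genotype, Pearson's r between their log2 CPM was 0.53 in GP (Spearman's rho 0.60). In M4 it was -0.54 (rho -0.77). In M5 it was -0.85 (rho -0.71). All M5 LN libraries lay above those of HN for HORVU2Hr1G096380 and below them for HORVU3Hr1G032400, and the r of M5 holds this difference again. Without the 2 libraries farthest from the median of HORVU2Hr1G096380, r was -0.32 in GP, -0.70 in M4 and -0.74 in M5. No test is given for these values.

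**Figure D3:**
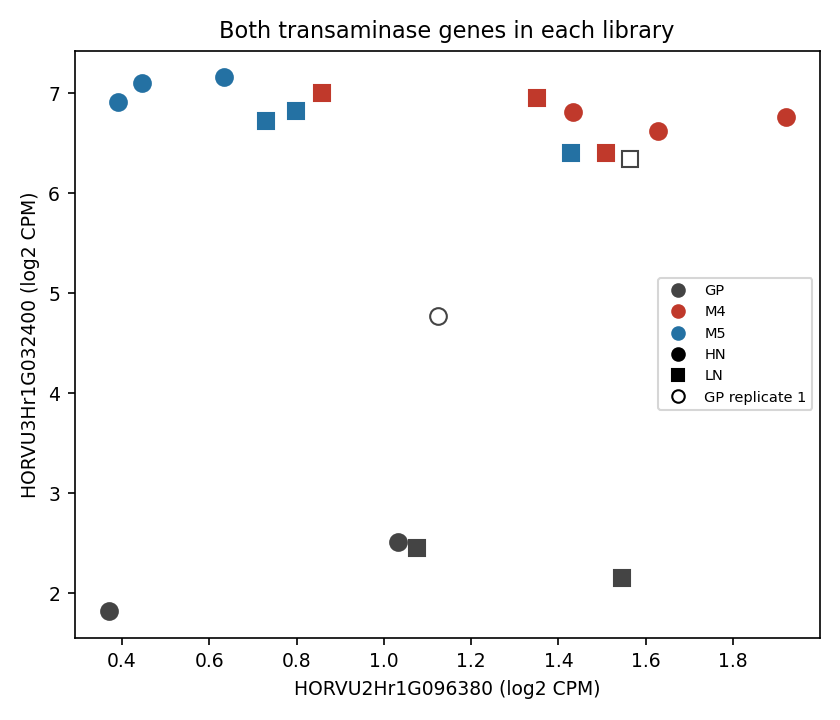
Log2 CPM of HORVU2Hr1G096380 (x axis) against HORVU3Hr1G032400 (y axis) in the 18 libraries, with colour for the genotype, circles for HN and squares for LN. M4 and M5 share the upper band, the 3 M5 HN libraries sit at its left end and the 3 M4 HN libraries toward its right, and the open symbols of GP replicate 1 lie between the other GP libraries and that band.

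The spread between libraries differed between the genes. The biological coefficient of variation fitted by edgeR was 19.2% for HORVU2Hr1G096380, close to the common value of 22.7%. For HORVU3Hr1G032400 it was 63.7%, above that of 97.4% of tested genes, and 16.7% without the GP replicate 1 libraries.

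The genes whose log2 CPM ran most like each transaminase gene over the 18 libraries were ranked by Pearson's r, as a description. For HORVU3Hr1G032400 these were HORVU7Hr1G119100 (r = 0.992), HORVU1Hr1G068790 (r = 0.991) and HORVU6Hr1G088130 (r = 0.991), for which no function was looked up. They share its low level in GP, with medians over 6 GP libraries of 0, 1.06 and 0.0640 CPM, against M4 means of 12.1, 159 and 58.3 CPM and M5 means of 14.1, 175 and 59.0 CPM. Their highest GP values were 6.69, 108 and 36.5 CPM. For HORVU2Hr1G096380 the most alike were HORVU4Hr1G017000 (r = 0.82), HORVU1Hr1G022430 (r = 0.79) and HORVU5Hr1G069380 (r = 0.77), a looser likeness.

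The study named 8 further genes by identifier beside the transaminases, 3 for threonine aldolase and 5 for isopropylmalate dehydrogenase. It chose all 10 on the M4 contrast under HN in these samples, so that this list is not independent evidence there. The study printed HORVU7Hr1G066450 as lower in M4 in that contrast, where the fit here gave 0.52 (SE 0.178). Here a value of -6.58 belonged to HORVU3Hr1G069300. For HORVU3Hr1G059060 (0.31 here) and HORVU3Hr1G000570 (3.34 here) the sizes printed by the study also differed. All 10 passed the filter on low counts. Calls over the list are from all 18 libraries, GP replicate 1 included, and were not counted again without it. In M4 against GP and M5 under LN, edgeR called 0 of the 10 higher and 2 lower, both outside the transaminases, beside 5.78% of all tested genes higher and 4.45% lower. These were the threonine aldolase gene HORVU4Hr1G085690 (-0.80, adjusted p = 0.00636, edgeR) and the isopropylmalate dehydrogenase gene HORVU3Hr1G069300 (-7.34, adjusted p = 6.45e-07, edgeR), which had at most trace levels in M4, a mean of 0.133 CPM. At an unadjusted p under 0.05 in edgeR there were 2 higher and 3 lower of the 10. DESeq2 called 0 higher and 2 lower, and the likelihood ratio test of edgeR called 1 higher and 2 lower. Shares over all tested genes were not set beside these further counts, so nothing is read from them. The median log2 difference over the 10 genes was 0.11, beside -0.01 over all tested genes.

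Between M5 and GP under LN, edgeR called 4 of the 10 higher and 1 lower, beside 1.2% and 3.03% of all tested genes. The list was chosen for a difference between these same genotypes, so nothing is read from that excess. Under HN, where the libraries also chose the list and nothing is read from the count, the calls were 4 higher and 1 lower as well, beside 3.25% and 4.27% (7.53% in all). The 4 under LN were the threonine aldolase genes HORVU1Hr1G046630 (1.24) and HORVU2Hr1G097910 (0.57) and the isopropylmalate dehydrogenase genes HORVU2Hr1G124400 (0.80) and HORVU7Hr1G066450 (1.05), with neither transaminase gene among them. HORVU2Hr1G124400 had 116 CPM in GP LN replicate 1, beside 56.9 and 68.7 CPM in replicates 2 and 3. The gene called lower under LN was the isopropylmalate dehydrogenase gene HORVU3Hr1G000570 (-6.63). In GP LN it had 2.34, 5.78 and 7.20 CPM in replicates 1, 2 and 3. Under HN, as a description, it stood at 0 CPM in all 3 M5 libraries and at 6.61 ± 0.526 CPM in GP (SD, n = 3). For LN against HN over the 3 genotypes, edgeR called 0 of the 10, beside 0.0315% of all tested genes. DESeq2 also called 0 of the 10, beside 287 genes in all. The HN libraries that chose the list are one side of this comparison, so nothing is read from these counts.

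**Figure D4:**
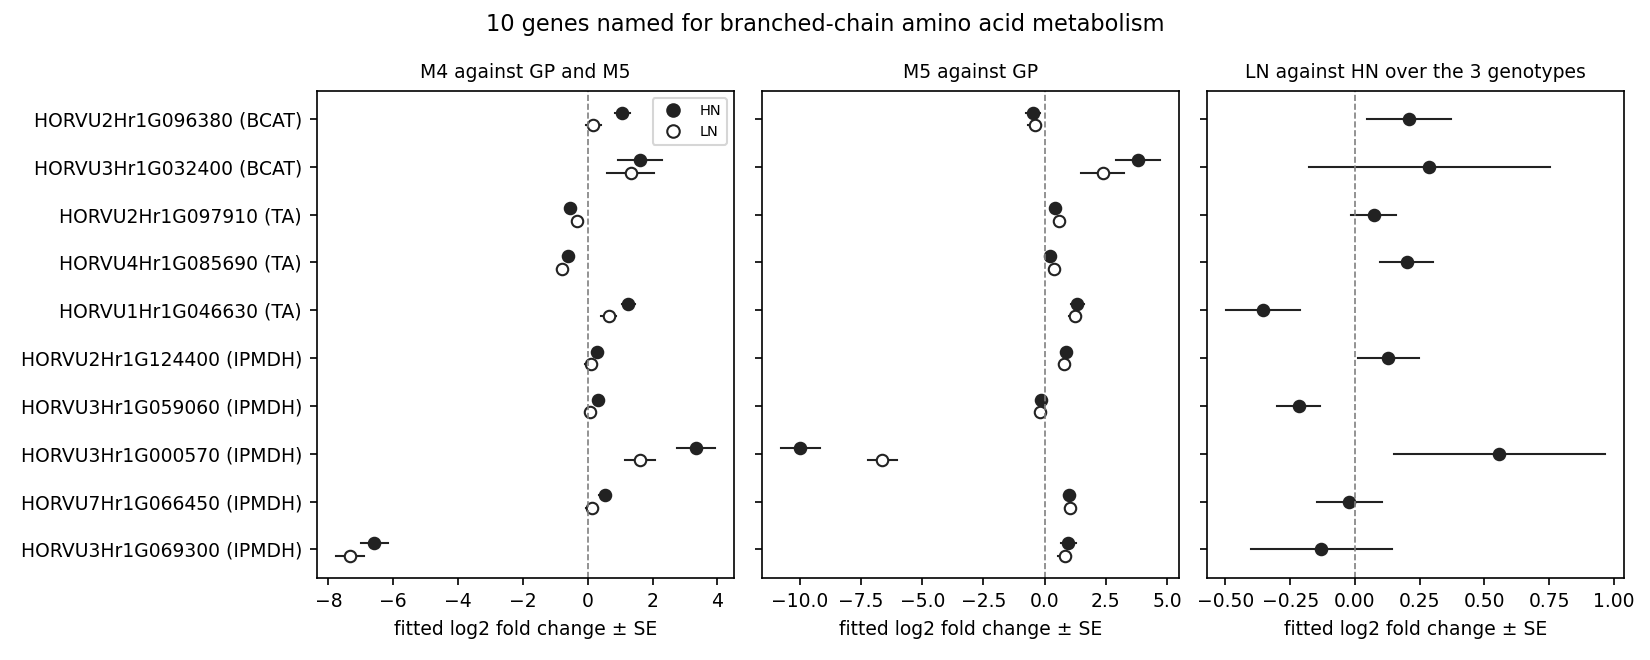
Fitted log2 fold changes with SE (x axis, a separate scale in each panel) for the 10 genes that the study named, with BCAT for branched-chain amino acid transaminase, TA for threonine aldolase and IPMDH for isopropylmalate dehydrogenase; filled and open symbols are HN and LN, and the HN values of the left panel chose the genes. All values are from the fit of all 18 libraries. For some of the isopropylmalate dehydrogenase genes the HN values in the left panel differ from those the study printed. In M5 against GP, HORVU3Hr1G032400 lies at 3.82 (HN) and 2.37 (LN), while HORVU2Hr1G096380 lies at -0.46 and -0.39.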

How the data were processed

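Poly(A) RNA was sequenced as stranded single-end reads, which the authors mapped and counted with STAR on the IBSC_v2 annotation of the cultivar Morex. The deposited values are raw counts per gene for each library, unstranded, forward and reverse. The reverse-strand counts were used, since the forward strand held 5.55 to 6.17% of stranded gene reads. Reads with several best matches (14.9 to 16.7% per library) were not counted, so that copies nearly identical to a transaminase gene would be missed. Reads of GP, M4 or M5 that differ too much from Morex to map would also be missed. Unmapped reads were 1.66 to 2.53% per library. Rows that name no gene were left out.

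Both transaminase genes and all lists were chosen with earlier results of these data known. Genes above 1 CPM in at least 3 of 18 libraries were fitted with edgeR 4.0.16 (R 4.3.3, limma 3.58.1), with TMM scaling, 6 groups and the replicate number as a block, all libraries sharing the estimate of spread. The quasi-likelihood test was two-sided, with Benjamini-Hochberg adjustment at 0.05. The number marks a harvest in the labels, apart from GP HN replicate 1, which has no date. Deviations from group means correlated with a median r of -0.0015 between libraries of 1 number (34 pairs) and 0.0060 between others (101 pairs). Log2 CPM used a prior count of 0.5. Named were both transaminases, the 8 further genes the study named and the 3 genes most alike to each. The study describes replicates as independent. No 2 libraries of a group agreed within sampling noise (lowest chi-square per degree of freedom 13.8). The test was checked on simulated counts. Alternatives were other scalings, filters, strands and blocks, the likelihood ratio test, limma-voom, DESeq2 1.42.0, subsets of groups and leaving out libraries.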

Additional observations from a re-analysis of the deposited data

How the results depend on the processing

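The values for HORVU3Hr1G032400 rested on the GP replicate 1 libraries, and those for HORVU2Hr1G096380 on few reads. Without both GP replicate 1 libraries, HORVU3Hr1G032400 passed the threshold of edgeR under LN for M4 against GP and M5 (2.42), M4 against GP (4.63) and M5 against GP (4.43). Without the block as well, a fit added after seeing the data, these were 2.34, 4.52 and 4.36, and LN against HN was -0.081. LN against HN turned to -0.13, spring against autumn to 0.062 and M4 against GP under LN for HORVU2Hr1G096380 to 0.034. M4 against GP under LN for HORVU3Hr1G032400 also passed with the likelihood ratio test of edgeR (2.63, adjusted p = 0.0375) and with DESeq2 (2.64, adjusted p = 0.0445). For HORVU2Hr1G096380 it was 0.11 with only the groups compared.

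Leaving out 1 library at a time gave these ranges of log2 differences. For HORVU3Hr1G032400 under LN they were 0.95 to 2.40 for M4 against GP and M5, 1.82 to 4.55 for M4 against GP, -0.28 to 0.68 for M4 against M5 and 1.69 to 4.30 for M5 against GP. They were 3.43 to 4.69 for M5 against GP under HN, -0.52 to 0.65 for LN against HN and -1.22 to 2.18 for LN against HN in GP. For HORVU2Hr1G096380 under LN they were -0.15 to 0.06 for M4 against GP and -0.09 to 0.24 for the permutation test of M4. The sign changes of M4 against M5 for HORVU3Hr1G032400 (-0.06, -0.02, -0.26, -0.21 and -0.28) and of M4 against GP for HORVU2Hr1G096380 (0.02, 0.04, 0.056 and 0.05) were small beside their SE, as were those of the permutation test (-0.086, -0.01, -0.03 and -0.04). Without the replicate block no call of either gene changed. M4 against GP and M5 under LN was then 1.02 for HORVU3Hr1G032400 and 0.04 for HORVU2Hr1G096380, and M5 against GP under HN was 3.45 for HORVU3Hr1G032400.

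The number of genes called varied more. With only the groups compared it was 298, 343, 246 and 130 for M4 against GP and M5, M4 against GP, M4 against M5 and M5 against GP under LN, beside 1946, 1191, 2228 and 805. For LN against HN it was 6, and 14 without the block, 15 with season as the block, 243 with the likelihood ratio test, 287 with DESeq2 and 1 without GP replicate 1. For spring against autumn it was 0, and 5 and 9 with the likelihood ratio test and DESeq2. The likelihood ratio test called 1787 genes for M4 against GP and 1355 for M5 against GP under LN. M5 against GP under LN gave 1320 with DESeq2 and 1285 without GP replicate 1. Without single libraries the numbers ran from 1057 to 2390, 711 to 1596, 1201 to 2498 and 382 to 1368 for the 4 LN comparisons and from 618 to 1637 for M5 against GP under HN. Causes were not tested.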
